A study of Arabidopsis thaliana with 48 samples.

Results

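Gene expression in seedlings labelled paraquat plus high light (PQ + HL) was compared with that in control seedlings (CT), in 3 libraries against 3. The members of the comparison were all genes whose normalised count averaged 10 or more across the 48 deposited libraries, which were 21536 of 32833 genes. The genes next to that limit, AT1G06148 inside it and AT4G05097 outside, had means of 10.0074 and 9.98734. The difference between PQ + HL and CT played no part in choosing them. A normalised count is the number of reads on a gene divided by 1 size factor per library, so it is scaled neither to gene length nor to a fixed total. The study set out to measure how Arabidopsis responds when several mild stresses meet, and the table held a control and every combination of salt, paraquat (PQ), high light (HL) and heat stress (HS), 16 groups of 3 biological replicates.

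All seedlings were wild type of the accession Col-0 and were grown on agar plates at 21 °C under 50 µmol of photons per square metre and second. CT seedlings stayed on plain medium. The PQ label stands for growth on medium with 0.05 µM paraquat from germination, the HL label for 1.5 h at 700 µmol of photons per square metre and second, and the PQ + HL label for both. Each replicate was RNA of many whole seedlings, roots and shoots together, so fewer cells of a type and less RNA per cell cannot be told apart, and p-values measure the spread between such pooled samples.

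Paraquat is a herbicide that takes electrons from photosystem I in the light and passes them to oxygen, which makes superoxide and, from it, hydrogen peroxide in the chloroplast. Light beyond what photosynthesis can use has a related effect, since it over-reduces the electron transport chain and feeds the formation of reactive oxygen species (ROS). Plants are known to answer both with ascorbate peroxidases, superoxide dismutases, early light-induced proteins, flavonoids and chaperones.

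The 6 libraries of the comparison held 73871796 to 80570320 reads on genes. Replicates of a group differed by more than counting noise (chi-square per degree of freedom 2.02 to 15.9 over the pairs of replicates in CT, PQ, HL and PQ + HL), so no library was a copy of another. Shoot and root markers were both present, as whole seedlings would have. Of the markers of high light in the libraries labelled PQ + HL, ELIP1 was far below its level in HL. ELIP2 and most flavonoid enzymes were below CT. The ascorbate peroxidases APX1 and APX2, copper and zinc superoxide dismutases and chaperones were above CT, while the other ascorbate peroxidases moved little. The names CT, PQ, HL and PQ + HL below are the deposited labels and no more.

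ELIP1 (AT3G22840), an early light-induced protein of the thylakoid that marks exposure to high light, had 944, 1018 and 992 normalised counts in the libraries labelled PQ + HL. It had 586, 586 and 526 in CT (log2 fold change 0.80, limma adjusted p = 3.24e-14), 31204, 32506 and 30099 in HL, and 28051, 25653 and 29409.7 in the libraries labelled PQ, whose label gives 50 µmol of light. Of the 8 groups with HL in their label, 5 had mean ELIP1 counts between 479 and 985, against 566 in CT, and 3 had means between 23095 and 35384. HSP101, the disaggregase made in heat, stood at 1130 and 1138 in the groups labelled PQ + HL + HS and Salt + PQ + HL + HS against 1098 in CT, although their labels include 33 °C, while PQ + HL, with no heat in its label, had 70863. Over all tested genes the group nearest to PQ + HL was Salt + HS, at a root mean square distance between group means of 0.30 on the log2 scale. By the same measure HL and PQ stood at 0.58 each and CT at 0.75. The largest distance between 2 single libraries of PQ + HL was 0.25. Single libraries hold noise that group means average out, so this value cannot be set directly against the others. Whether labels or columns were exchanged was not tested, and no library was moved to another group.

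**Figure D1:**
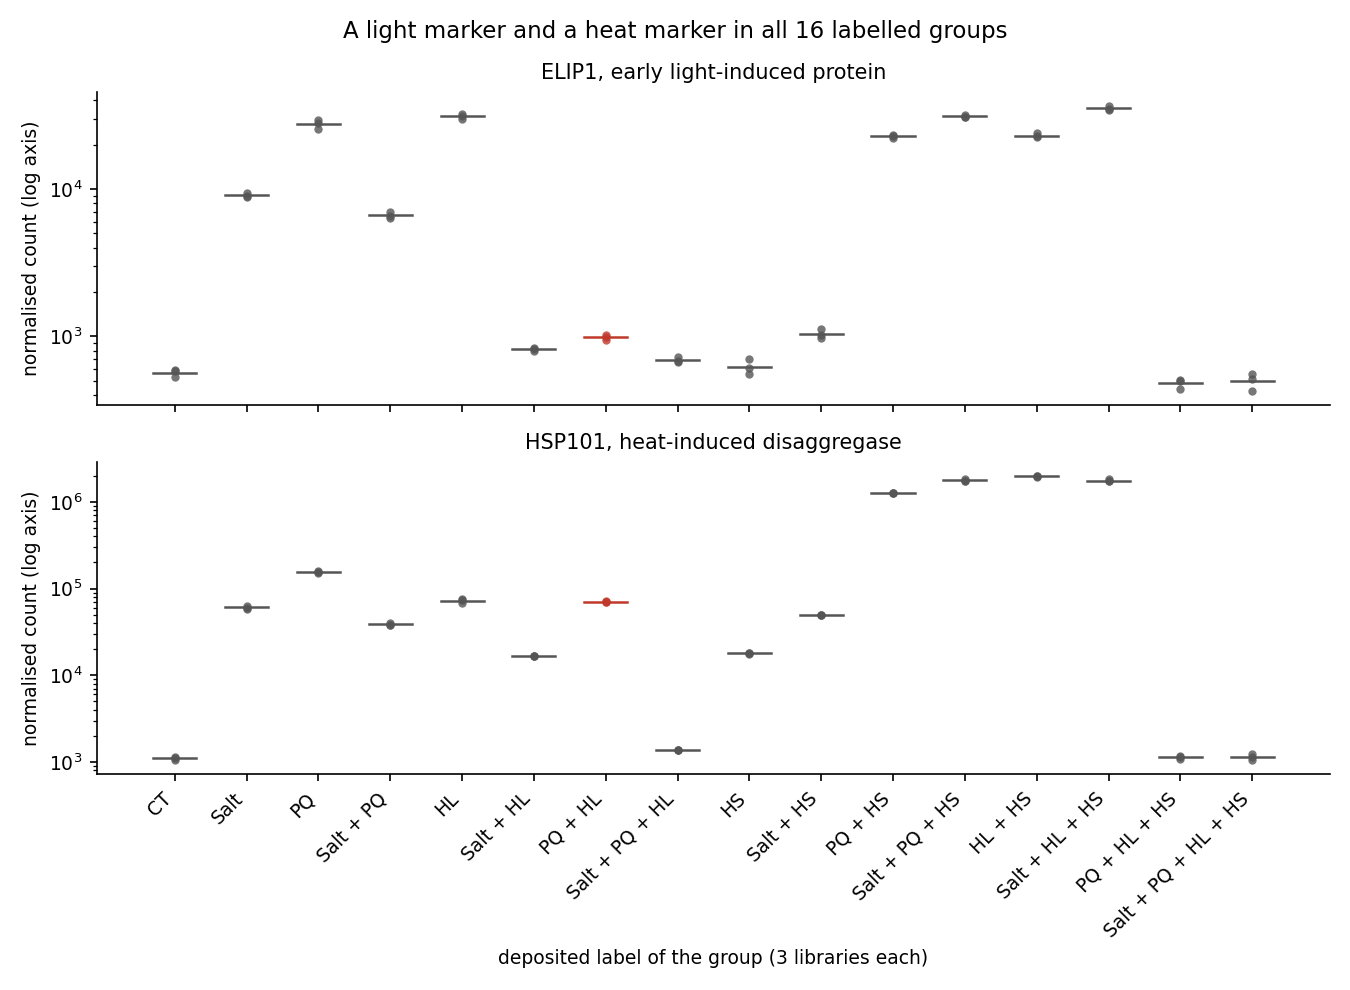
Normalised counts (log axis) of ELIP1 and HSP101 in each of the 48 libraries, by deposited label, with points for libraries and bars for means. The libraries labelled PQ + HL (red) sit much nearer to CT than to HL for ELIP1, at 944 to 1018, and far above it for HSP101, at a mean of 70863 against 1098.

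Of the 21536 genes, 7733 (35.9%) were higher and 7406 (34.4%) were lower with the label PQ + HL than in CT by limma's moderated test at an adjusted p under 0.05. Most of these differences were small. The median absolute log2 fold change was 0.31 with a median standard error of 0.060, and 1610 genes (7.48%) were higher and 656 (3.05%) lower by at least 2-fold. When each library was instead scaled to the same total, the median of all genes shifted by -0.12 on the log2 scale and the calls split into 5924 higher and 9761 lower, and those of at least 2-fold into 1364 and 987. All log2 fold changes below are on log2(normalised count + 1), which understates the change of genes near 0.

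By share of library reads, the 8 genes that gained most with the label PQ + HL were chaperones, their partner ROF2, the stress enzymes GSTF8 and APX1, and PIP2A, an aquaporin of the plasma membrane, which went from 0.1005% to 0.269% of reads. HSP70-4 (AT3G12580), a cytosolic heat-induced Hsp70, took 0.673% ± 0.00376 (SD, n = 3) of reads against 0.00508% ± 0.000210 in CT. HSP90.1, ROF2 and GSTF8, a phi class glutathione S-transferase, gained 0.346, 0.277 and 0.218 percentage points. The genes that lost most were parts of the photosynthetic machinery, led by LHCB1.3, a chlorophyll-binding antenna protein of photosystem II, at 1.098% ± 0.0202 against 1.83% ± 0.0777. RBCS1A, a small subunit of Rubisco, went from 1.27% to 0.795% of reads and TKL1, a transketolase of the Calvin cycle, from 0.260% to 0.150%. Only 83.0% of the 50-base windows of LHCB1.3 occur once in the genome, so its reads may be split with near copies.

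Counts for gene lists below are over the members that passed the filter, and genes of a list under it were not tested (2 of 23 heat shock factors, 2 of 17 flavonoid enzymes, 2 of 15 flavonoid regulators, 2 of 10 NADPH oxidases, 2 of 27 jasmonate genes and 1 each of the antenna, salicylic acid, auxin, iron deficiency and abscisic acid synthesis lists). Background shares are those given above.

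**Figure D2:**
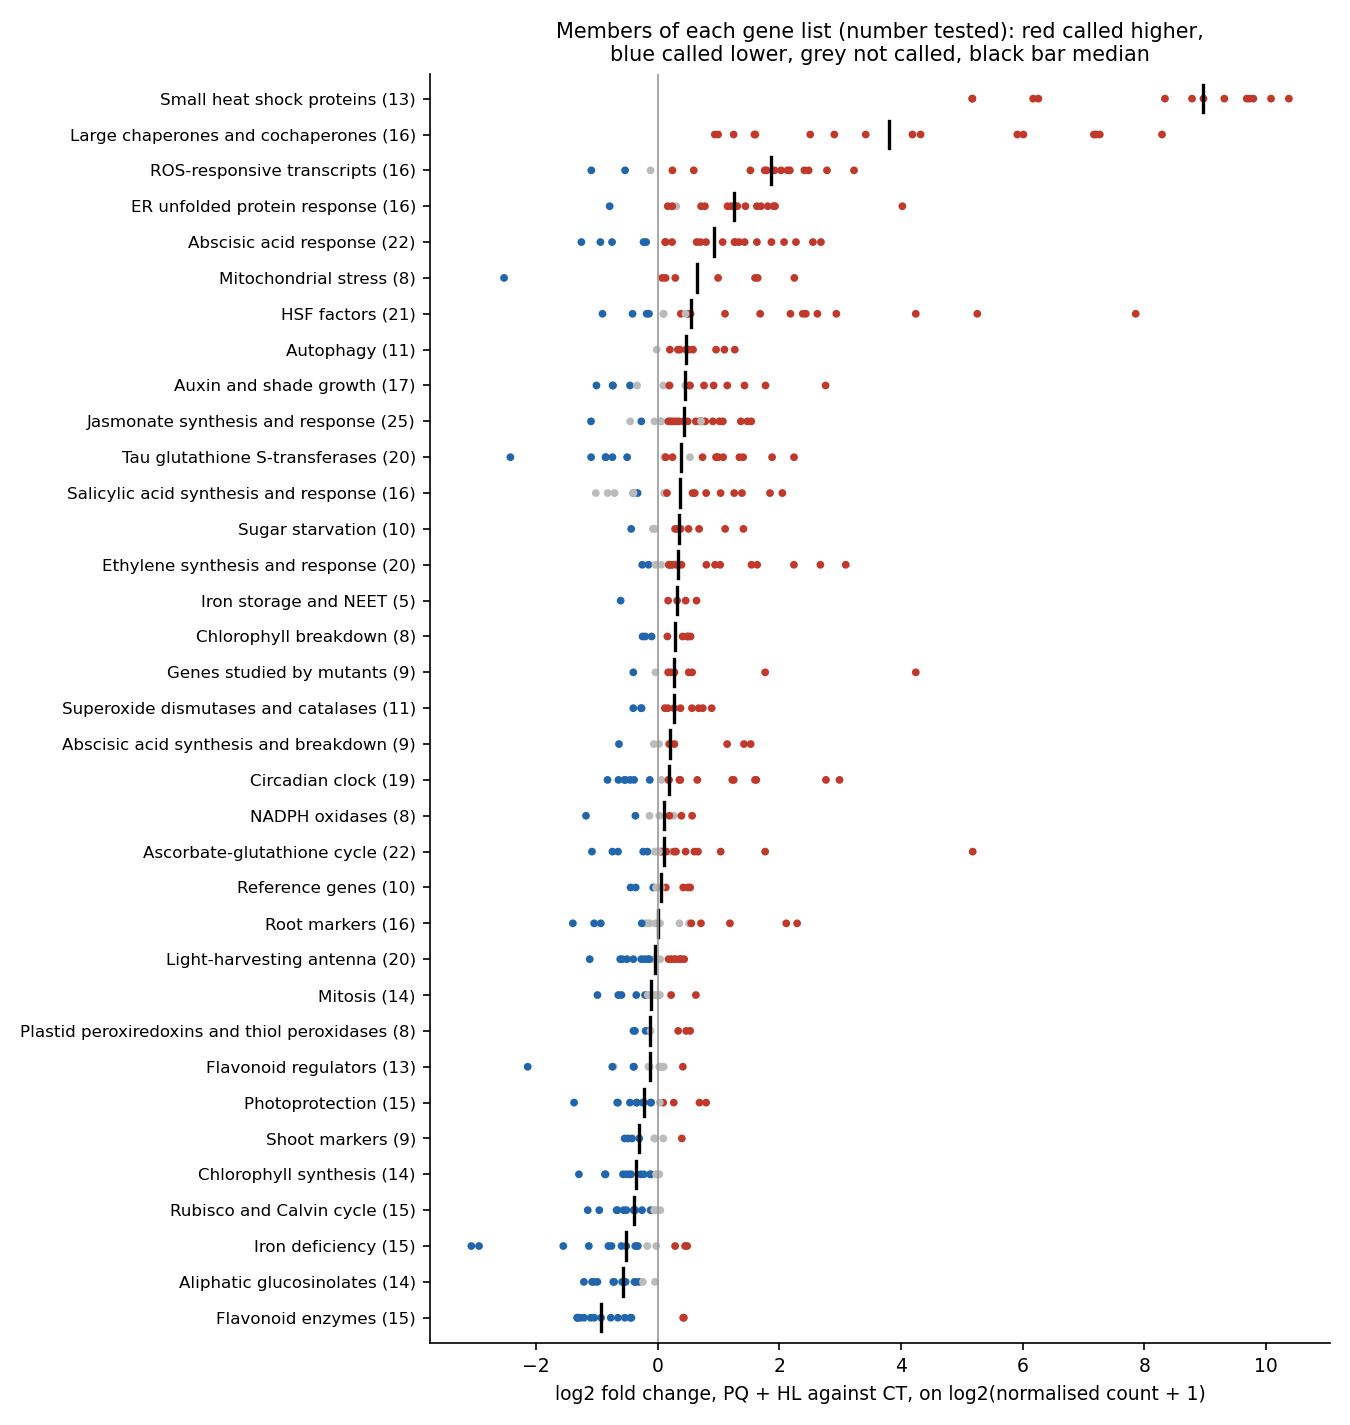
Log2 fold change of PQ + HL against CT for each tested member of the gene lists, with the number tested in brackets, red for called higher, blue for called lower, grey for not called and a bar at the median. All 13 small heat shock proteins lie above 5, while 13 of 15 flavonoid enzymes and 10 of 15 iron deficiency genes are called lower.

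Small heat shock proteins, which hold unfolding proteins without ATP, made up 9 of the 10 largest rises of the comparison. All 13 were higher and all by at least 2-fold, where 35.9% and 7.48% of all genes were, with a median log2 fold change of 8.97. HSP17.6II (AT5G12020), of the cytosolic class II, had 59.9, 51.9 and 35.9 normalised counts in CT and 71294, 61638 and 63111 in PQ + HL, a log2 fold change of 10.37 (standard error 0.16, limma adjusted p = 2.49e-41). HSP21 (AT4G27670), which guards the thylakoids inside the chloroplast, had 3.2, 4.86 and 3.19 in CT and 2962, 3026 and 2958 in PQ + HL. HSP21 had under 5 normalised counts in every CT library, so its log2 fold change of 9.31 (standard error 0.27, limma adjusted p = 7.86e-31) rests on a level near the limit of detection. The libraries of PQ + HL lay above those of CT for every one of the 13, and the replicates of PQ + HL were close together.

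The rises within the list ranged from 5.17 to 10.37 on the log2 scale. HSP17.6C (AT1G53540) had 48.7, 34.8 and 66.2 normalised counts in CT and 56652, 51767 and 51839 in PQ + HL. HSP17.4 had 16.3 ± 6.71 (SD, n = 3) and 14593 ± 377, and HSP17.8 had 100.5 ± 8.48 and 85782 ± 3619. HSP23.6, of the mitochondrion, rose from 40.4 ± 9.04 to 33476 ± 1329.9, and HSP22, of the endoplasmic reticulum, from 10.9 ± 5.39 to 5481 ± 36.4. The smallest rises of the list were those of HSP18.2 at a log2 fold change of 5.17 and HSP15.7, of the peroxisome, at 5.17.

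These levels were below those with either single label. All 13 small heat shock proteins were lower in PQ + HL than in PQ, and 12 of 13 were lower than in HL, where 31% and 30.6% of all genes were lower. HSP18.2 had 2209, 2235 and 2302 normalised counts in PQ + HL, 21897, 22656 and 19954 in HL and 76281, 82039 and 84592 in PQ. Against PQ this was a log2 fold change of -5.17 (standard error 0.13, limma adjusted p = 3.49e-33), with no overlap between the groups.

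Large chaperones and their partners rose in full as well, 16 of 16, and 14 of them by at least 2-fold, with a median of 3.80. HSP101 (AT1G74310), which pulls proteins out of aggregates, had 1055, 1133 and 1106 normalised counts in CT and 72009, 69787 and 70792 in PQ + HL (log2 fold change 6.01, standard error 0.039, limma adjusted p = 4.04e-56). ROF2, a heat-induced peptidyl-prolyl isomerase that binds Hsp90, went from 613 ± 44.2 (SD, n = 3) to 191807 ± 5491, and HSP90.1 from 1556 ± 22.6 to 239873 ± 10959. Constitutive members rose less. HSC70-1 (AT5G02500), an Hsp70 present without stress, had a log2 fold change of 0.99, and the chloroplast Hsp70 CPHSC70-1 one of 0.94. HSP70-4 had 468101, 464218 and 459105 normalised counts in PQ + HL and 432740, 446842 and 425434 in HL, a difference of 0.09 on the log2 scale (standard error 0.042) that did not pass the test, and 8 of the 16 were lower in PQ + HL than in HL and 15 lower than in PQ.

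**Figure D3:**
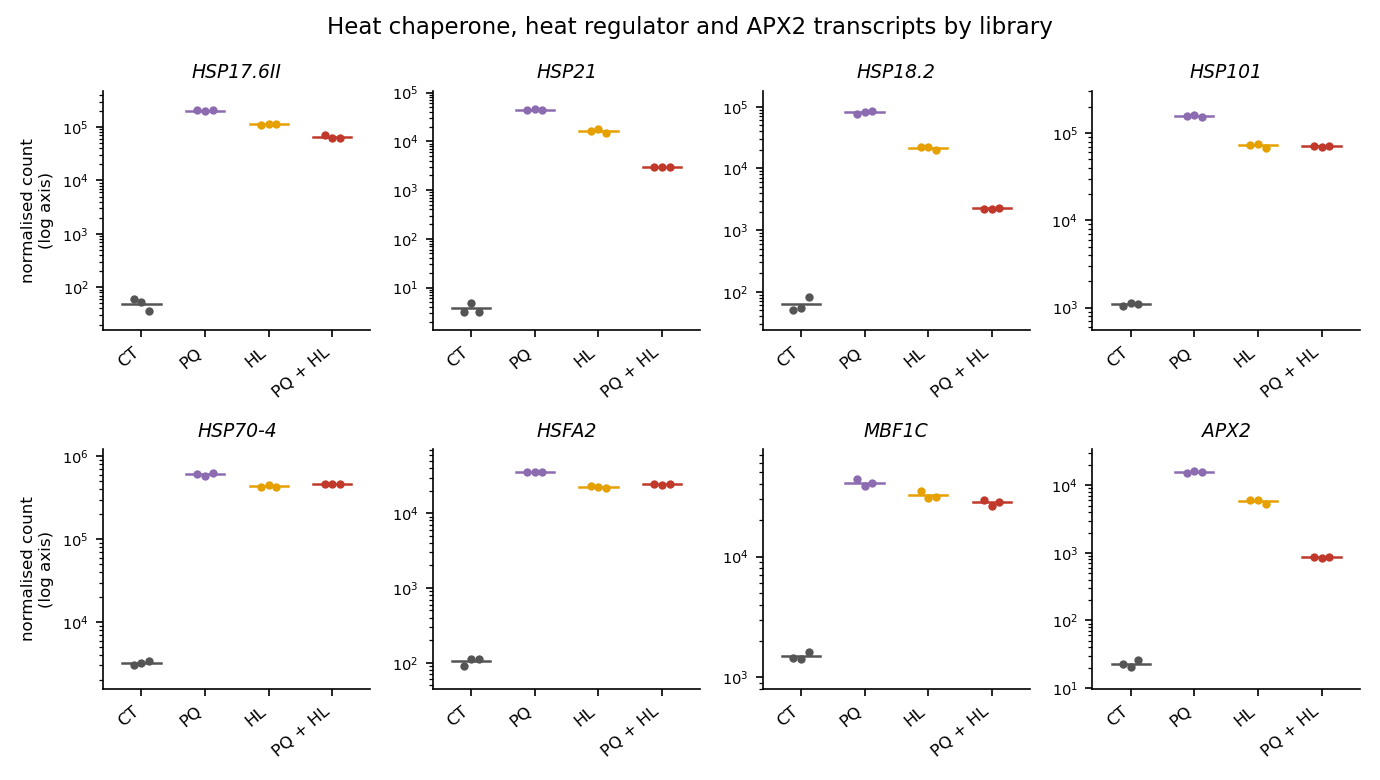
Normalised counts (log axis) of chaperones, heat regulators and APX2 in the 3 libraries of each label, with bars at the means. PQ + HL lies far above CT in every panel. HSP21, HSP18.2 and APX2 are lower in PQ + HL than in PQ and HL, while HSP101, HSP70-4 and HSFA2 differ from HL by -0.03, 0.09 and 0.12 on the log2 scale.

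Among the heat shock factors and their partners, 14 of 21 were higher and 4 lower. HSFA2 (AT2G26150), which is made in stress and keeps chaperone genes on, had 90.3, 112 and 112 normalised counts in CT and 24712, 24008 and 24516 in PQ + HL (log2 fold change 7.86, standard error 0.090, limma adjusted p = 2.44e-46). The stress-made factors HSFA7B, HSFB2B and HSFA3 rose too, with log2 fold changes of 5.25, 2.63 and 2.18. MBF1C, a heat-induced coactivator whose mutant the study examined, went from 1486 ± 111 (SD, n = 3) to 28138 ± 1634, and DREB2A, a factor of drought and heat responses, from 642 ± 22.4 to 4926 ± 82.3. The constitutive factors that start the response moved little. HSFA1A did not pass the test (487 against 520.2), HSFA1B and HSFA1E were lower at -0.14 and -0.41, and HSFA1D was higher at 0.38. The call for HSFA1B was lost without CT replicate 3 (-0.11, limma adjusted p = 0.055).

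The promoters of 2 of these genes are shown because they carry the element that heat shock factors bind, next to that of HSP17.4, a member with one of the largest rises. Each runs from 250 bases before to 50 bases after the annotated start in RefSeq's TAIR10.1, 5′ to 3′ on the strand of the gene. Capitals mark the heat shock element, searched as the triplets GAA, TTC and GAA with any 2 bases between neighbours on both strands, and in HSP17.4 and HSFA2 also the G-box CACGTG. HSP17.4 lies at chr3:16984818-16985117 on the minus strand, HSFA2 at chr2:11135374-11135673 and HSFA7A at chr3:19264891-19265190, both on the plus strand.
HSP17.4: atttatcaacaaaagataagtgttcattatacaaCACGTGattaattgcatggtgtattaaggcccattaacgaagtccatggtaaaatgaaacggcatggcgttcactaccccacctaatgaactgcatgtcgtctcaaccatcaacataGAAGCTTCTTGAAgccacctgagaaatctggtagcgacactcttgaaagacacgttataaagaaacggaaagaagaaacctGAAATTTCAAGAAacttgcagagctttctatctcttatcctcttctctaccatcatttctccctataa
HSFA2: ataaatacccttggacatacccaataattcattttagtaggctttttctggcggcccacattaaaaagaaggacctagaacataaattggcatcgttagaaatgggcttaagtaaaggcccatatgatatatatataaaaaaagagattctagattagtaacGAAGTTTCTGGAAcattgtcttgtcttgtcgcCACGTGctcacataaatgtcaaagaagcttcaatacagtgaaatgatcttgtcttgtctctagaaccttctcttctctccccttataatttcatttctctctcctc
HSFA7A: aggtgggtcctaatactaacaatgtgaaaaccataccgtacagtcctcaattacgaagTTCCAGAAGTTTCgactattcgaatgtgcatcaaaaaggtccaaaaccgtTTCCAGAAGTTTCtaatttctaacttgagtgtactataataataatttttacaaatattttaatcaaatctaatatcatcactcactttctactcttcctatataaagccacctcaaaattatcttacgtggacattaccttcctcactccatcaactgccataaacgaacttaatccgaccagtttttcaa
HSP17.4 and HSFA7A held 2 elements each and HSFA2 held 1, at base -88 from the start. In this strict form the element was in 0.546% of all promoters read (117 of 21416), in 2.62% of those of genes at least 2-fold higher and in 0.611% of those at least 2-fold lower. Only 2 of 13 small heat shock protein promoters held it, and 10 of 13 held TGGGCC, the site II element, which 17.82% of all promoters held. Site II was in 11.65% of the promoters of genes at least 2-fold higher and 8.855% of those at least 2-fold lower. The G-box was in 8.78% of all promoters, 14% of those at least 2-fold higher and 7.63% of those at least 2-fold lower. A match is a stretch of letters in this window and nothing else was measured at it.

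Genes of the unfolded protein response of the endoplasmic reticulum rose together with the cytosolic chaperones, 14 of 16 higher, 10 of them by at least 2-fold, with a median of 1.26. BIP1 and BIP2, the Hsp70s of that compartment, had 12556 ± 397 and 10168 ± 407 (SD, n = 3) normalised counts in CT and 47028 ± 1144 and 38742 ± 713 in PQ + HL, and only 81.2% and 81.0% of their 50-base windows are unique, so their counts may be shared. ERDJ3A, a J-domain partner of BiP, had the largest rise of the list, from 480.2, 528 and 498 to 8263, 7954 and 8292 (log2 fold change 4.02, limma adjusted p = 1.29e-42). The calnexin CNX1 and the sensor-derived factor BZIP28 rose by 1.63 and 1.21. In contrast, NAC103, a factor of the same response, was lower (-0.79), and BIP3 did not pass the test (184 ± 36.5 against 226 ± 32.0). Against HL, 11 of the 16 were higher in PQ + HL, where 29.8% of all genes were.

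Ascorbate peroxidases, which reduce hydrogen peroxide with ascorbate, divided, with APX1 and APX2 rising by more than 2-fold and the other 6 within 0.24 on the log2 scale of CT. APX2 (AT3G09640), the cytosolic form made in excess light and heat, had 22.4, 20.3 and 26.3 normalised counts in CT and 867, 852 and 869.7 in PQ + HL (log2 fold change 5.18, standard error 0.11, limma adjusted p = 4.58e-36). With the single labels it was higher still, at 6076, 6023 and 5369 in HL and 15172, 16468 and 15898 in PQ. APX1, the main cytosolic form, had 43999, 43369 and 44300.1 in CT and 150078, 150048 and 148216 in PQ + HL, 3.41-fold, with no overlap. The stromal form SAPX was lower (-0.24) and the thylakoid form TAPX did not pass the test (8329.6 ± 87.0 against 8205 ± 190.3), though with equal library totals it was lower at -0.14.

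Of the 22 genes of the ascorbate and glutathione cycle, 12 were higher and 5 lower, with a median of 0.10. With equal library totals the balance turned to 8 higher and 10 lower and the median to -0.02. Among the rises were DHAR2, a dehydroascorbate reductase, at 1.04 and MDAR2 at 0.60. MDAR6 and GR2, a monodehydroascorbate and a glutathione reductase, were lower, MDAR6 from 11768 ± 211 (SD, n = 3) to 5575 ± 94.5 and GR2 from 20040.3 ± 757 to 12768 ± 183. MDAR3 was lower too, at -0.74. Superoxide dismutases and catalases were higher in 8 of 11 cases and lower in 3, none by 2-fold. The copper and zinc enzymes CSD1, CSD2 and CSD3 rose by 0.74, 0.68 and 0.89 on the log2 scale. CSD1 and CSD2 had 0.82 and 0.92 in PQ and 0.13 and -0.07 in HL against the same CT libraries. CAT2, the leaf peroxisomal catalase, had 217564, 214549 and 210923 normalised counts in PQ + HL against 140441, 142738 and 151583 in CT, and the iron enzymes of the plastid FSD1 and FSD3 were lower.

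Transcripts known to answer ROS were higher in 13 of 16 cases, 11 of them by at least 2-fold, and lower in 2, with a median of 1.86. AT1G19020, a gene of unknown function that many oxidative treatments induce, had 389, 353 and 367 normalised counts in CT and 3809, 3301 and 3324 in PQ + HL (log2 fold change 3.23, standard error 0.062, limma adjusted p = 1.49e-37). The zinc finger factors ZAT10 and ZAT12 went from 256 ± 16.7 (SD, n = 3) to 1369 ± 44.0 and from 466 ± 21.2 to 1581 ± 91.3. OXI1, a kinase of hydrogen peroxide signalling, and AT3G28580, a mark of singlet oxygen, were the 2 that fell, by 0.53 and 1.09 on the log2 scale. The call for AT3G28580 was lost without CT replicate 1 or 2 or PQ + HL replicate 2, with log2 fold changes of -1.023, -1.013 and -1.005. Against HL 9 of the 16 were lower in PQ + HL and 4 higher, and against PQ 7 were lower and 3 higher. Of all genes 30.6% and 31% were lower in these comparisons. ERF6 went the other way from most and stood above both single labels, at 1261, 1251 and 1256 in PQ + HL, 738, 605 and 636 in PQ and 711, 563 and 617 in HL.

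Responses of other compartments to oxidative stress followed in part. The alternative oxidase AOX1A, which lets electrons bypass the mitochondrial cytochrome path, had 5007, 5230.3 and 5322 normalised counts in CT and 16204, 15530.2 and 15506 in PQ + HL, 3.04-fold, and 7 of 8 mitochondrial stress genes were higher. NDB4, an external NADH dehydrogenase, was lower at 87.1, 115 and 105 in CT and 15.8, 17.7 and 17.3 in PQ + HL. Tau class glutathione S-transferases, which conjugate toxic compounds to glutathione, divided into 12 higher and 6 lower of 20. Against HL 14 of these were lower and 1 higher, and against PQ 9 were lower and 5 higher. GSTU5 had 10004, 10042 and 9873 in CT and 50577, 44611 and 46609 in PQ + HL, while GSTU25 had 4083, 4593 and 3851 and 657, 823 and 872, and in neither did the groups overlap.

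NADPH oxidases make the superoxide of ROS signalling at the plasma membrane. RBOHD (AT5G47910), the main one of leaves, was higher, at 3220.0, 3387 and 3610.5 normalised counts in CT and 5182, 5027 and 4926 in PQ + HL (log2 fold change 0.57, limma adjusted p = 5.52e-16). RBOHB was lower at -1.18, and RBOHC, known from root hairs, did not pass the test (865 ± 64.8 against 789.6 ± 65.9) but was lower at -0.25 with equal library totals. Of the 9 genes studied with mutants or altered lines, 7 were higher and 1 lower. Besides APX1, RBOHD and MBF1C these were AOS of jasmonate synthesis (0.22), ABA2 of abscisic acid synthesis (0.28), the autophagy protein ATG9 (0.51) and the iron-sulfur protein NEET (0.17, limma adjusted p = 0.0474). The call for AOS was lost with quantile normalization (0.06, limma adjusted p = 0.0998). The call for NEET was lost with edgeR (adjusted p = 0.0587), with DESeq2 (adjusted p = 0.0739) and with equal library totals (limma adjusted p = 0.555). It was also lost with quantile normalization and with no filter on low genes (limma adjusted p = 0.401 and 0.0763). Leaving out CT replicate 2 or 3 or PQ + HL replicate 2 or 3 lost it too (limma adjusted p = 0.072 to 0.186). ICS1 of salicylic acid synthesis was lower at -0.40, and the ethylene signalling protein EIN2 was not called, with 7881, 8168 and 8452 in CT and 7914, 7991 and 8005 in PQ + HL, though with equal library totals it was lower at -0.15.

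Photoprotection genes, which dissipate or repair excess light energy, were mostly lower with the label PQ + HL, 10 of 15, with 4 higher and a median of -0.22. ELIP2 (AT4G14690), the second early light-induced protein, had 1192, 1467 and 1368 normalised counts in CT and 509, 508 and 532 in PQ + HL (log2 fold change -1.37, standard error 0.13, limma adjusted p = 4.62e-13). In HL it had 12178, 11770.3 and 11832, so all libraries of HL were above CT and all libraries of PQ + HL below it. The violaxanthin de-epoxidase VDE1, which starts the xanthophyll cycle, was lower at -0.65, and the quenching protein PSBS at -0.11, a size that is within the shift between scalings. PGRL1B, of cyclic electron flow, was higher at 0.69. In the direct tests, 13 of 15 were lower in PQ + HL than in HL and 13 of 15 lower than in PQ, against 30.6% and 31% of all genes.

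The promoter of ELIP1 is shown since its level in PQ + HL was so far from that in HL. It lies at chr3:8085620-8085919 on the minus strand in TAIR10.1, and capitals mark the G-box CACGTG, at base -66, and a heat shock element that begins at base 23 after the start.
ELIP1: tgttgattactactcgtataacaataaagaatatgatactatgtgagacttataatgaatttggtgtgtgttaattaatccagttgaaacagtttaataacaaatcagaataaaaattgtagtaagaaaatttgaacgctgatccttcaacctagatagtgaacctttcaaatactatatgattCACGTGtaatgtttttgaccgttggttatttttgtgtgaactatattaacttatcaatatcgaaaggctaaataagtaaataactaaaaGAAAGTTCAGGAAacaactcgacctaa

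Rubisco and Calvin cycle genes, which fix carbon dioxide, were lower in 11 of 15 cases and higher in none, where 34.4% of all genes were lower, with a median of -0.39. RBCS1B, a small subunit of Rubisco, had 118386, 107420 and 118328 normalised counts in CT and 52363, 52285 and 50576 in PQ + HL (log2 fold change -1.15, standard error 0.046, limma adjusted p = 3.01e-25), with 85.5% of its windows unique. CP12-2, a small regulator of the cycle, was lower by 1.94-fold and the phosphoribulokinase PRK by 1.58-fold, while RCA, Rubisco activase, did not pass the test (550283 ± 19388 against 567845 ± 10675) and its direction depended on the scaling, lower at -0.07 with equal library totals and higher at 0.19 with quantile normalization. Of the light-harvesting antenna 8 of 20 were higher and 9 lower, where 35.9% and 34.4% of all genes were. LHCA1, LHCA3, LHCA4 and LHCB3 rose by 0.36 to 0.44 on the log2 scale, whereas LHCB2.3 fell from 30299 ± 809 (SD, n = 3) to 13992 ± 270.2.

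Chlorophyll synthesis was lower in 11 of 14 genes and higher in none, with a median of -0.36. PORB, the light-driven protochlorophyllide reductase of green leaves, had 48870, 47882 and 50250 normalised counts in CT and 26012, 27186 and 27466 in PQ + HL. In HL it was lower than in PQ + HL, at 12913, 12980.4 and 13179.6. CHLI2 of magnesium chelatase was lower at -0.85 and CHLG, chlorophyll synthase, at -0.57, while the chelatase subunit CHLH did not pass the test (118395 ± 7214 against 117213 ± 2521) and with equal library totals was lower at -0.13. Of the 8 genes of chlorophyll breakdown, 5 were higher, among them PAO at 0.51 and SGR1 at 0.41, and 3 lower.

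Flavonoid enzymes, which make sunscreens and anthocyanins and are known to rise in high light, were lower in 13 of 15 cases, 7 of them by at least 2-fold, with a median of -0.93. FLS1, flavonol synthase, had 3128, 3049 and 3134 normalised counts in CT and 1403, 1551 and 1578 in PQ + HL (log2 fold change -1.04, standard error 0.081, limma adjusted p = 3.23e-15). In HL it had 20651, 19123 and 20729.5 and in PQ 14980, 12899 and 13517, so PQ + HL was the lowest of the 4 labels with no overlap. DFR, which opens the anthocyanin branch, had 525, 506 and 525 in CT and 219, 187 and 221 in PQ + HL, and CHS, the first enzyme of the path, had 10713, 11459 and 12688 and 7680.3, 8148 and 8138. C4H, of the general phenylpropanoid path, and the acyltransferase 3AT1 were the 2 higher members, at 0.43 and 0.42.

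All 15 of these enzymes were lower in PQ + HL than in HL, with a median of -2.30. Among the regulators 4 of 13 were lower and 1 higher. The anthocyanin factor PAP1 had 217, 151 and 221 normalised counts in CT and 145, 156 and 139 in PQ + HL, where the groups overlap by 1 library. The call against CT (log2 fold change -0.40, limma adjusted p = 0.026) was lost without any 1 of CT replicates 1 and 3 and PQ + HL replicates 1 and 3, with values of -0.30 to -0.39. PAP1 had 1300.2, 1255 and 1338 in HL. HY5, the light signalling factor upstream of many of these genes, was slightly higher than in CT (0.42), with 1612, 1585 and 1556 in PQ + HL and 5659, 5393 and 5404 in HL.

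**Figure D4:**
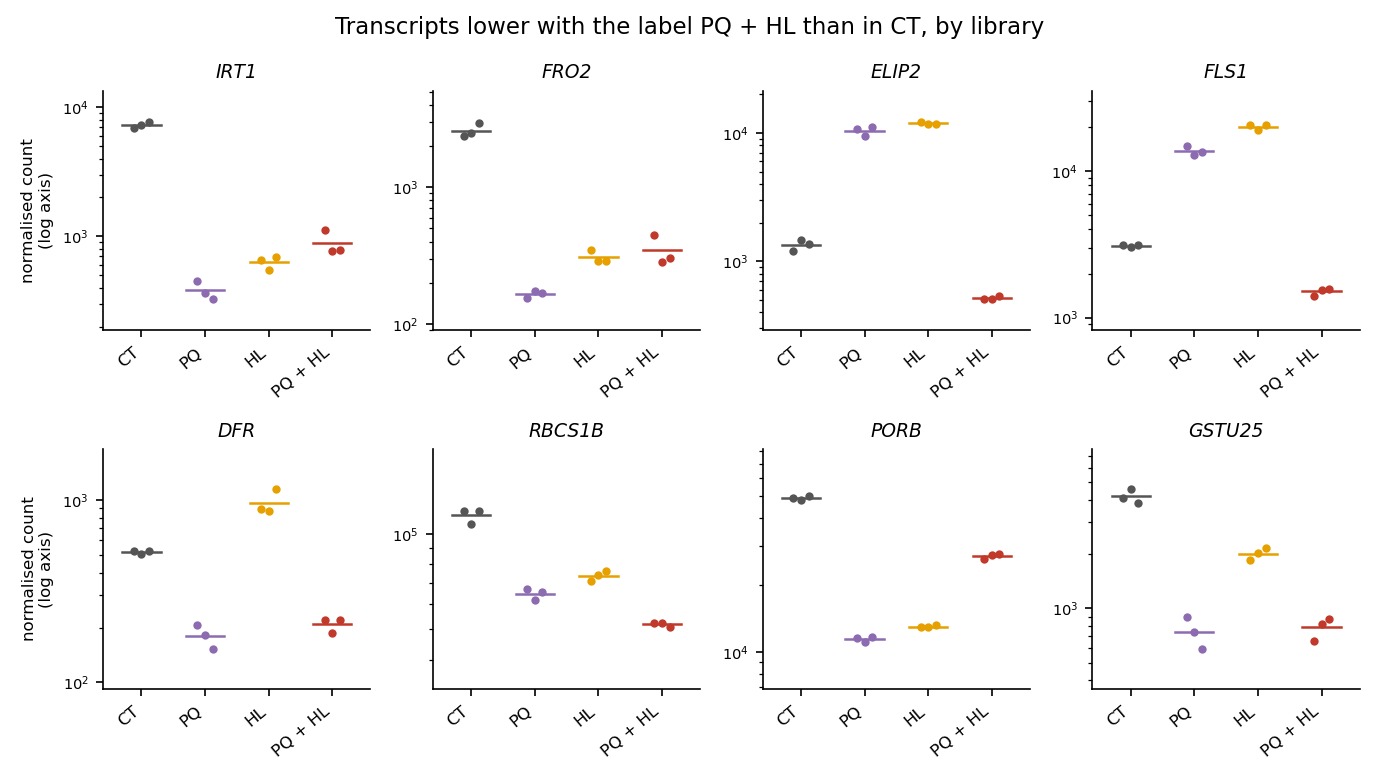
Normalised counts (log axis) of genes called lower with the label PQ + HL than in CT, in the 3 libraries of each label, with bars at the means. IRT1, FRO2, PORB and RBCS1B are below CT with every label. ELIP2 and FLS1 are below CT in PQ + HL but above it in PQ and HL.

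Genes that respond to abscisic acid, the hormone of water deficit, were higher in 17 of 22 cases, 11 of them by at least 2-fold, and lower in 5, with a median of 0.93. HAI1, a phosphatase of the feedback on its signalling, had 336, 322 and 382 normalised counts in CT and 2045, 2091 and 1970.0 in PQ + HL (log2 fold change 2.55, standard error 0.051, limma adjusted p = 6.97e-37). RD29B and KIN1, late stress proteins, rose 4.81-fold and 4.22-fold. In contrast, COR15A and COR15B, chloroplast proteins of cold acclimation, fell from 1556 ± 78.7 (SD, n = 3) to 813 ± 76.8 and from 1797 ± 8.93 to 755 ± 11.4. RD29A fell by 0.23 and P5CS1, of proline synthesis, by 0.75 on the log2 scale. All 22 were lower in PQ + HL than in HL, and all 22 lower than in PQ, where 30.6% and 31% of all genes were.

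Of the ethylene genes 16 of 20 were higher and 2 lower, and the enzymes that make its precursor led them. ACS11 had 141, 140.2 and 138 normalised counts in CT and 1242, 1159 and 1194 in PQ + HL, above both HL with 214, 187 and 178 and PQ with 351, 438 and 322. ACS8 went from 31.0 ± 3.96 (SD, n = 3) to 203 ± 16.9, and the receptor ETR2 rose by 1.64. Jasmonate genes were higher in 18 of 25 cases, most by less than 2-fold, with the repressors JAZ7 and JAZ10 at 1.54 and 1.48 and JAZ4 lower at -1.09. Salicylic acid genes were higher in 9 of 16 cases. WRKY70 and CBP60G, regulators of this path, rose by 1.85 and 1.39, whereas its output genes PR1, PR2 and PR5 did not pass the test, with means of 51.5, 77.9 and 99.6 in CT and 24.3, 49.2 and 75.4 in PQ + HL. PR1 and PR5 were called lower by edgeR (adjusted p = 0.0282 and 0.0363) and by DESeq2 (adjusted p = 0.0393 and 0.048). They were also called lower with equal library totals (limma adjusted p = 0.0477 and 0.0251). With only CT and PQ + HL in the limma fit, PR1 and PR2 were called lower (limma adjusted p = 0.00128 and 0.0227). With a pseudocount of 10, PR1 was called lower (limma adjusted p = 0.0439).

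Among growth genes of auxin and shade 9 of 17 were higher and 4 lower. PIF4, a factor that promotes elongation in warmth and shade, had 2253, 2169 and 2310.0 normalised counts in CT and 7859, 7759.5 and 7414 in PQ + HL (log2 fold change 1.77, standard error 0.033, limma adjusted p = 3.19e-38), which was above HL (4695, 4417 and 4643) and PQ (5196, 5566 and 5614). XTH22, a cell wall enzyme induced by touch, rose 6.77-fold, while the expansin EXPA8 was lower by 2.01-fold.

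Genes of the circadian clock moved in both directions, 11 of 19 higher and 7 lower, with 6 of the rises at least 2-fold. PRR9 (AT2G46790), a morning repressor, had 217, 279.5 and 240.0 normalised counts in CT and 1823, 1957 and 2072 in PQ + HL (log2 fold change 2.99, standard error 0.058, limma adjusted p = 2.61e-37), and 68.7% of its 50-base windows are unique. LNK1, a morning coactivator, rose from 1581 ± 56.9 (SD, n = 3) to 10762 ± 140.2 and CCA1, a morning factor, from 4601 ± 103 to 10956 ± 142. LHY, the close relative of CCA1, fell by 0.39 on the log2 scale instead, and PRR5, PRR3 and ELF4 fell by 0.53, 0.45 and 0.54. By the study's methods, seedlings for RNA were harvested together, 1.5 h into the light or heat.

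The promoter of PRR9 is shown for the clock list, in which 7 of 19 promoters held the evening element AAAATATCT and 9 of 19 the G-box, against 2.89% and 8.78% of all promoters. It lies at chr2:19232357-19232656 on the plus strand in TAIR10.1, and capitals mark a pair of G-boxes and 1 evening element, read here on the other strand.
PRR9: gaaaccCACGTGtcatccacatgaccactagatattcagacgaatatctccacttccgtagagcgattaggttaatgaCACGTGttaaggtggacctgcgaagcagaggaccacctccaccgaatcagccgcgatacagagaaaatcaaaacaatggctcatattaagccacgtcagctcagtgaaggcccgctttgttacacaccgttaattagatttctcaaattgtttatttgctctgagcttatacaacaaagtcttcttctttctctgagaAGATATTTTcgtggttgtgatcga
The evening element was in 3.12% of the promoters of genes at least 2-fold higher and 4.28% of those at least 2-fold lower.

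Iron uptake genes of the root had some of the largest falls. IRT1 (AT4G19690), the iron transporter of the root surface, had 6923, 7285 and 7666 normalised counts in CT and 1109, 767 and 782 in PQ + HL (log2 fold change -3.06, standard error 0.20, limma adjusted p = 9.29e-18). FRO2, the ferric chelate reductase that works with it, had 2373, 2480.2 and 2934 and 446, 285 and 301, and CYP82C4, an enzyme of the coumarins released in iron deficiency, had 2754, 2499 and 2799.6 and 714, 276 and 299.7. In all 3 genes replicate 1 of PQ + HL was the highest of its group, and no library overlapped CT. Of the 15 genes of the list 10 were lower and 3 higher, and FIT, the factor that drives IRT1 and FRO2, was lower at -1.13.

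Iron storage went the other way in part. The ferritins FER1, FER2 and FER4 were higher at 0.46, 0.64 and 0.32, and FER3 was lower at -0.61. AT3G12900, an oxygenase gene known as S8H of coumarin synthesis, was the largest fall of the whole comparison, with 209, 252 and 293 normalised counts in CT and 9.67, 4.65 and 9.5 in PQ + HL (log2 fold change -4.86, standard error 0.74, limma adjusted p = 1.68e-07). Markers of root cell types were higher in 5 of 16 cases and lower in 4, both below the shares over all genes (35.9% and 34.4%). Their median was 0.00, and -0.12 with equal library totals. The aquaporin TIP2;3 of the root rose from 722 ± 73.4 (SD, n = 3) to 3536 ± 260.1 and CASP1 of the endodermis did not pass the test (1616 ± 169.6 against 2071 ± 142). The root meristem factors PLT1 and PLT2 were lower at -0.93 and -1.39. Of 9 shoot markers 1 was higher and 4 lower, with a median of -0.30, and the part of tissue makeup in any result was not tested.

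Other large falls were PCC1 (309, 239.8 and 277 in CT, 7.03, 13.9 and 14.7 in PQ + HL), a small membrane protein under clock and pathogen control, and AT3G01260, of the galactose mutarotase family (376, 378 and 403 in CT, 20.2, 32.5 and 28.5 in PQ + HL). Only 63.7% of the windows of PCC1 are unique. AT1G29090, annotated as a cysteine protease, fell from 1136 ± 108 (SD, n = 3) to 136 ± 45.8. AT1G18830, of the WD40 repeat family, fell from 896 ± 146 to 109.5 ± 22.4.

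Aliphatic glucosinolate genes, which make the sulfur defence compounds of the cabbage family, were lower in 12 of 14 cases and higher in none, with a median of -0.57. MYB28, the main factor of this path, had 3192, 3196 and 3154 normalised counts in CT and 1495, 1479 and 1550.3 in PQ + HL (log2 fold change -1.08, limma adjusted p = 1.78e-19). MAM3 and CYP79F2, enzymes of chain elongation and of the core structure, fell by 1.21 and 1.04 on the log2 scale. Autophagy genes were higher in 10 of 11 cases and lower in none, with ATG8H and ATG8E, which mark autophagosomes, at 1.27 and 1.099, and ATG8G not called (529 ± 40.0 against 523 ± 4.12).

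Genes known to rise when sugar is short were higher in 7 of 10 cases and lower in 1. DIN10 had 47379, 51143 and 48927 normalised counts in CT and 78819.8, 79200.5 and 78563 in PQ + HL, but 21624, 22656 and 19887 in HL, so the labels HL and PQ + HL lay on opposite sides of CT. The trehalose phosphate synthase homologues TPS11 and TPS8 rose by 1.41 and 1.11. All 10 genes were higher in PQ + HL than in HL and all 10 higher than in PQ, where 29.8% and 30.5% of all genes were. Mitotic genes were lower than CT in 5 of 14 cases, near the 34.4% of all genes, and higher in 2, and with equal library totals 8 were lower and 1 higher. CYCB1;1, a cyclin of dividing cells, had 307 ± 33.5 (SD, n = 3) in CT and 196 ± 22.3 in PQ + HL, and 10 of the 14 were higher than in HL and 12 higher than in PQ.

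**Figure D5:**
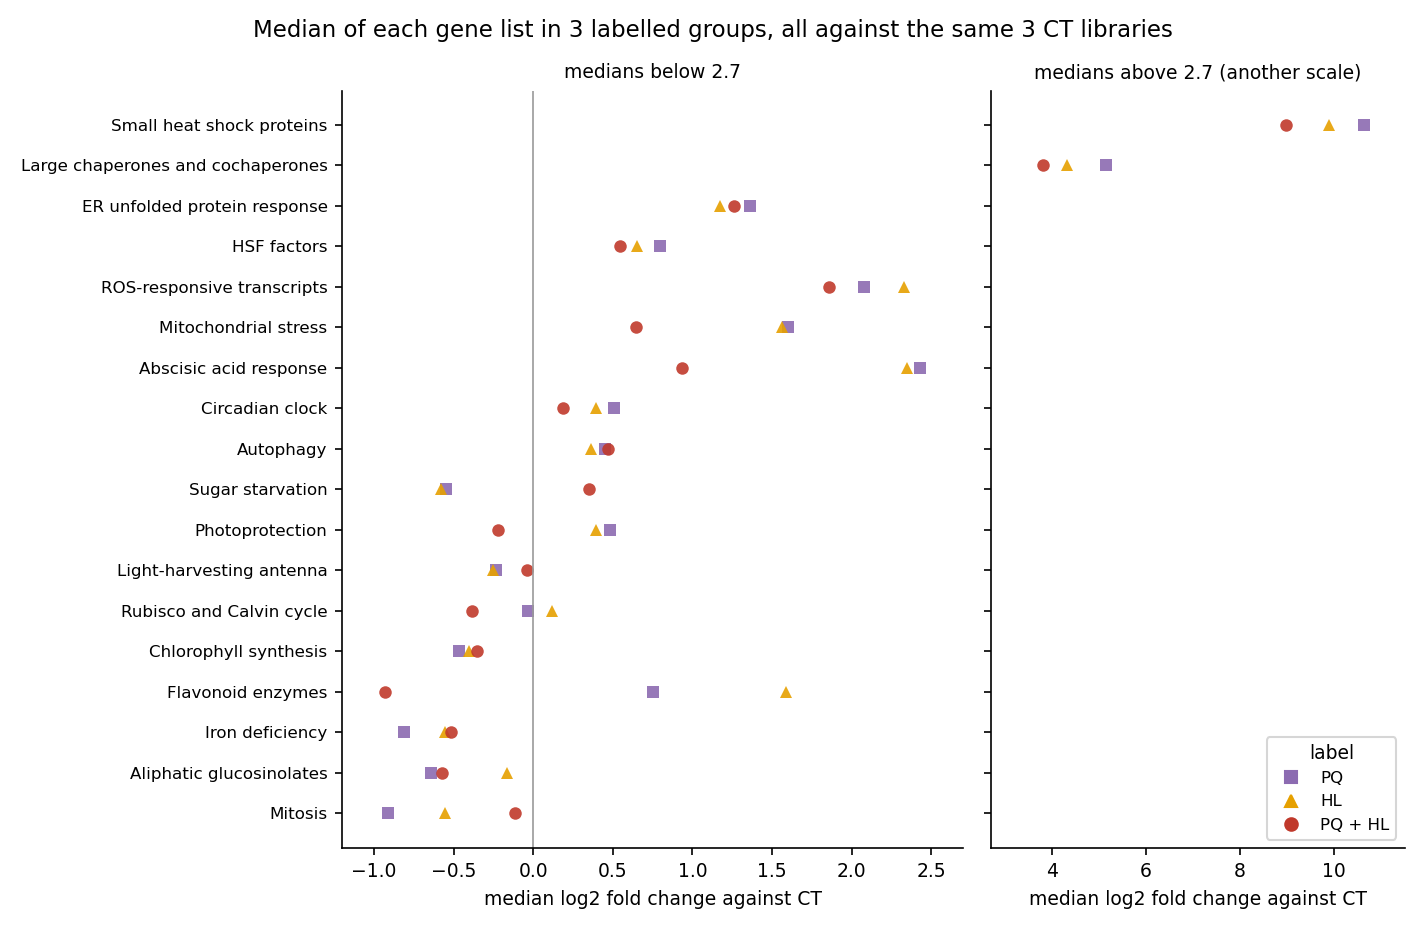
Median log2 fold change against CT of 18 gene lists for the labels PQ (squares), HL (triangles) and PQ + HL (circles), with a separate scale for the 2 chaperone lists. The 3 labels share the CT libraries. Flavonoid enzymes and photoprotection lie above 0 in HL and PQ and below it in PQ + HL, and sugar starvation genes lie the other way round.

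In the direct test of PQ + HL against HL, whose labels differ by paraquat, 6420 genes (29.8%) were higher and 6586 (30.6%) lower, 663 (3.08%) and 970 (4.5%) of them by at least 2-fold. Against PQ, which asks what high light adds on paraquat, 6567 (30.5%) were higher and 6669 (31%) lower, 511 (2.37%) and 1033 (4.8%) of them by at least 2-fold. With equal library totals these splits became 8646 higher and 4749 lower against HL, and 10863 and 3910 against PQ. ELIP1 was among the largest differences of both, with a log2 fold change of -4.99 against HL (standard error 0.067, limma adjusted p = 3.64e-42) and -4.81 against PQ.

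The largest rises against HL included MRN1 (AT5G42600), marneral synthase of root triterpenes, and AT5G43520, of the cysteine and histidine rich C1 domain family. MRN1 had 304, 268 and 273 normalised counts in HL, 323, 258 and 253 in CT, 1934, 1466 and 1325 in PQ and 2087, 2359 and 2417 in PQ + HL. BBX17, a B-box factor, had 274 ± 26.3 (SD, n = 3) in HL and 1938 ± 64.5 in PQ + HL. The largest falls against HL included AT2G22590, a gene of the UDP-glycosyltransferase family, with 2349, 2188 and 2253 in HL and 34.3, 48.3 and 42.3 in PQ + HL. LTP4, a lipid transfer protein, stood at 3551 ± 141 in HL and at 123 ± 14.6 in PQ + HL. SAG29, a sugar transporter of senescing leaves, had 2387, 2656 and 3239.9 in HL and 76.5, 112 and 99.3 in PQ + HL.

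Against PQ the largest rises were AT1G26390, a berberine bridge enzyme gene (64.5 ± 8.6 in PQ, 715 ± 8.67 in PQ + HL), and CYP82C2 (25.5 ± 12.7 and 237 ± 2.31), against 145 ± 49.4 and 314 ± 70.4 in CT. So PQ + HL was above CT for AT1G26390, while CYP82C2 did not pass the test against CT. LEA3, of the late embryogenesis abundant family, was below CT, HL and PQ, with 175, 178 and 171 normalised counts in PQ + HL, 806, 783 and 789 in CT, 4481, 4317 and 4610.4 in HL and 6203, 5213 and 6092 in PQ. In Salt + HS LEA3 had a mean of 159 and was not called different from PQ + HL.

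Whether the combination differed from the sum of both single labels was tested as an interaction on the log2 scale. It was higher in 8225 genes (38.2%) and lower in 8376 (38.9%), by at least 2-fold in 2810 (13%) and 3641 (16.9%), and with equal library totals the split was 12213 higher and 5282 lower. All 13 small heat shock proteins, all 16 large chaperones and all 22 abscisic acid response genes were among the lower. HSP21 had the lowest value at -15.66 (standard error 0.38, limma adjusted p = 4.47e-34), with 2962, 3026 and 2958 normalised counts in PQ + HL, 16206, 17680.3 and 14553 in HL and 44391, 45483 and 44674 in PQ. For HSP21 the sum of both single changes lies above the reads of a whole library, so a lower value was fixed in advance. The same limit bears on other genes with very large rises in both PQ and HL. All 14 mitotic genes were among the higher, and 14 of 15 iron deficiency genes were.

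Genes were also placed by the position of PQ + HL among the 4 labels. It lay above CT and below both PQ and HL in 2378 genes (11.0%), below CT and above both in 1799 (8.35%), above all 3 in 1888 (8.77%) and below all 3 in 1642 (7.62%). ACS11, PER4, a peroxidase, and CML41, a calmodulin-like protein, were among those above all 3, PER4 with 459, 575 and 462 in CT, 483 ± 18.1 (SD, n = 3) in PQ, 566 ± 117 in HL and 1754, 1724 and 1717 in PQ + HL. DREB1A, a cold-induced factor, and SWEET13, a sucrose exporter, were among those below all 3, with 15.5 ± 4.48 and 74.7 ± 2.45 in PQ + HL against 52.9 ± 9.48 and 228 ± 28.9 in CT. In Salt + HS, the group nearest to PQ + HL, ACS11, CML41 and DREB1A had means of 1075, 331 and 21.7. None of these was called different from PQ + HL, where ACS11 and CML41 had 1198 and 315. PER4 and SWEET13 were called, with means of 462 and 137 in Salt + HS.

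The group labelled Salt + HS (50 mM NaCl and 33 °C), the nearest to PQ + HL, was compared with it after this was seen. Here 2215 genes (10.3%) were higher and 1797 (8.34%) lower in PQ + HL, 210 (0.975%) and 81 (0.376%) of them by at least 2-fold, and the median absolute log2 fold change was 0.083 against 0.31 for CT. Small heat shock proteins had a median of 0.54 above Salt + HS, and photoprotection and flavonoid enzymes stood at 0.05 and -0.16. AT1G53610 had one of the largest rises of this comparison, at 371, 348 and 355 in PQ + HL, 25.6, 17.0 and 9.57 in CT and a mean of 52.2 in Salt + HS.

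Genes often used as references were not all level. Of 10, 4 were higher and 3 lower with a median of 0.05, which became 3 higher, 4 lower and -0.07 with equal library totals. UBQ10 was higher at 0.54 and ACT2 lower at -0.44, whereas SAND, TIP41L and UBC21 were not called, with log2 fold changes of -0.03, 0.06 and 0.05. With equal library totals SAND was called lower at -0.15.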

How the data were processed

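RNA of whole Arabidopsis seedlings was sequenced as 48 libraries. Per the submitters' processing notes and the methods, reads were checked with FastQC 0.11.7 and aligned with STAR 2.4.0.1 to TAIR10. The deposited values were gene counts that the authors divided by DESeq2 1.20.0 size factors, a signal with no scaling to length. All values were whole multiples of 1 step per library (100% within 1e-06), so the reads were recovered from them, 73871796 to 80570320 per library in CT and PQ + HL. The main test was limma 3.58.1 with a trend in R 4.3.3 on log2(value + 1), with 16 group terms over 48 libraries and Benjamini-Hochberg adjustment over the 21536 genes that averaged 10 or more. A call was an adjusted p under 0.05, and the interaction was PQ + HL minus PQ minus HL plus CT. edgeR 4.0.16 and DESeq2 1.42.0 were run on the recovered reads as alternatives, with other pseudocounts, filters, scalings, the replicate block and each replicate left out. The limma test of PQ + HL against CT was checked on simulated counts with known changes in PQ + HL only. The interaction, edgeR and DESeq2 were not checked in this way. Named genes were up to 4 members per list with the largest called change and further members where a sentence on a family needed them. The 10 largest rises and falls and the 5 at each end of the direct tests were named, with a mean of at least 50 and no overlap between groups. The 5 at each end of the interaction needed a call and that mean, without the limit on overlap. The 9 genes studied by mutants and the 8 largest gains and losses of reads were also named. The members and lists were chosen with earlier results of these data known. Genes named outside that rule were chosen after their values were seen. Promoters and annotations were read from RefSeq's TAIR10.1.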

Additional observations from a re-analysis of the deposited data

Results flagged for a closer look

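The 5 lowest and the 5 highest values of the interaction by limma, the departure of PQ + HL against CT from the sum of both single labels, are given here for genes with a mean of at least 50, and all of these share the CT libraries. The interaction was -15.66 on the log2 scale for HSP21, -15 for HSP22, -14.16 for HSP17.6C, -13.59 for HSP18.2 and -13.07 for HSP23.6, all of them small heat shock proteins that were above CT with each of the labels PQ, HL and PQ + HL. HSP22 had 10.9 normalised counts in CT, 71617 in PQ, 27504 in HL and 5481 in PQ + HL as means of 3 libraries. For HSP21 and HSP22 the sum of both single changes lies above the reads of a whole library, so their lower values were fixed in advance. The interaction was 7.618 for AT3G01260, 6.835 for AT3G12900, 5.949 for PCC1, 5.16 for AT1G29090 and 5.06 for AT5G10570. These 5 were below CT with each of the labels, AT5G10570, of the bHLH family, with means of 113 in CT, 14.7 in PQ, 14.8 in HL and 59.2 in PQ + HL. Levels near 0 with the single labels make the sizes for AT3G01260 (3.83 in PQ, 10.8 in HL) and AT3G12900 (2.43 and 6.05) depend on the pseudocount. For both genes the sum of the single changes lies below the limit of detection, so a lower value could hardly be seen.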

How the results depend on the processing

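Of the counts of called genes recomputed with other settings, 316 of 324 stayed within 1.5 times the value given, and of the medians of gene lists 543 of 555 moved by less than 0.15 on the log2 scale. With equal library totals, 987 genes were lower than CT by at least 2-fold. Against PQ, 10863 genes were then higher, 3910 lower and 811 higher by at least 2-fold, and in the interaction 5282 were lower and 4889 higher by at least 2-fold. With a pseudocount of 10, 135 genes were higher and 45 lower than Salt + HS by at least 2-fold. In each case the cause was not tested. Quantile normalization gave LHCB1.3 a log2 fold change of 0. That method gives each rank the same value in every library, so a gene whose rank is unchanged gets 0 whatever the size of its fall. With single libraries left out, 7411 to 7465 genes were higher and 6993 to 7028 lower than CT, 1592 to 1630 and 645 to 692 of them by at least 2-fold.

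Against CT, edgeR called 7797 higher and 7813 lower, and DESeq2 7935 and 7713. Replicate numbers did not pair the samples, since the correlations of same-numbered libraries of PQ + HL and CT were -0.011, -0.0097 and -0.019, and a replicate block gave 7732 higher and 7404 lower. Genes near 0 in CT, such as HSP21, are limited by depth.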

Other observations

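Transcripts of the organelle genomes, which poly(A) selection is known to capture poorly, were read apart from the nuclear genes. Of 37 mitochondrial genes that passed the filter, out of 152, 8 were higher and 1 lower in PQ + HL than in CT, with a median log2 fold change of 0.32. All 37 were lower than in PQ and 24 lower than in HL, and the medians of those single labels against the same CT libraries were 2.52 and 1.33. PQ replicate 1 stood apart for organelle reads, with 0.0409% mitochondrial and 0.136% chloroplast reads against 0.0199% and at most 0.0158% in the other PQ libraries. Without it 34 of the 37 were lower than in PQ and the PQ median was 2.39. Of 82 chloroplast genes that passed, out of 133, 2 were lower than in CT and 80 were not called. Nuclear genes of plastid peroxiredoxins and thiol peroxidases, which reduce peroxides with thiols, were higher in 3 of 8 cases and lower in 4, with 8 of 8 lower than in PQ. Abscisic acid synthesis and breakdown genes were higher in 6 of 9 cases and lower in 1, with a median of 0.21 in PQ + HL, 1.51 in PQ and 1.31 in HL against CT.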
